A study of Mus musculus with 8 samples.

Results

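RNA bound to chromatin was compared with RNA of the cytoplasm in mouse embryonic fibroblasts that had received no heat shock. The comparison took every gene listed in both fractions, paired by Ensembl identifier, that averaged at least 1 RPKM over the 4 fraction libraries. RPKM is the number of reads scaled by the length of the gene and by the total of the library. This left 4512 of the 28785 genes listed in the 4 tables. The cells were TSC2+/+ and of strain C57BL/6J. The series held 8 libraries. The fraction libraries were 1 of chromatin and 1 of cytoplasm without heat shock, and 1 of each after 1 h at 42 °C and 3 h of recovery at 37 °C. RNA fragments of 40 to 60 nt were cut from a gel before sequencing. The soluble nuclear fraction was removed as a separate step, and how much RNA of the nucleoplasm remained in either library is not known here. Each side is 1 library. No difference was therefore tested, and the values describe these libraries.

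The tables hold identifiers without gene names. Symbols were assigned to identifiers recalled from general knowledge and were accepted where the gene span implied by the RPKM values lay within 2% of the span of that symbol in RefSeq (GRCm38.p6). Of 972 identifiers tried, 625 were accepted, 158 of them with an equal span, and 480 were among the genes compared. The other compared genes are counted but not named.

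Chromatin holds RNA still being made, introns not yet removed and noncoding RNAs that act where they are transcribed, while the cytoplasm holds ribosomes, mitochondria and mRNA under translation. Long noncoding RNAs such as Malat1 and Neat1 are known as nuclear RNAs, the latter as the scaffold of paraspeckles. Mitochondrial transcripts are made inside the organelle, and mRNAs of ribosomal proteins are spliced, exported and stable in growing cells.

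A few loci took most of the cytoplasmic reads. At 10 loci that are known to collect ribosomal RNA reads, or that were set apart after their read counts had been seen, lay 3680474 reads in chromatin, which was 20.0% of 18364642, and 6176107 reads in cytoplasm, which was 74.5% of 8292312. Gm42418, a copy of the 18S ribosomal RNA, had 1470637 reads in chromatin and 3700038 in cytoplasm. Lars2, which encodes the mitochondrial leucyl-tRNA synthetase, had 536514 and 1197212 reads. Of the 10 loci, 9 had the higher RPKM in the cytoplasm, by up to 7.79-fold at Cmss1. The exception was ENSMUSG00000097971, a locus of 3329 bp with 1231924 reads in chromatin and 274060 in cytoplasm, 2.03-fold higher in chromatin on the deposited scale. All 10 are called the ribosomal RNA loci here. The direction of ENSMUSG00000097971 turned when the ribosomal RNA loci were left out of the scale. Cmss1, Cdk8, Camk1d, Mir6236 and Mir6240 were among the loci set apart after their reads had been seen. The count of 9 is therefore partly set by that choice, and describes these loci alone.

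Among these loci were 2 annotated microRNA genes. Their sequences are shown because they had read counts close to each other and ratios close to those of Lars2 and Gm42418. The sequences are those of RefSeq (GRCm38.p6), 5′ to 3′. Capitals mark the seed, bases 2 to 8, of each mature form, and in the hairpin they mark the mature form. The 2 mature forms do not share a seed. The mature form of Mir6236 lies at chr9:110281353-110281371 on the plus strand, and the hairpin of Mir6240 at chr5:114851948-114852064 on the plus strand.
mmu-miR-6236 mature: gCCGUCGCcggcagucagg
mmu-miR-6240 mature: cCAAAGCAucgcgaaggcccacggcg
Mir6240 hairpin: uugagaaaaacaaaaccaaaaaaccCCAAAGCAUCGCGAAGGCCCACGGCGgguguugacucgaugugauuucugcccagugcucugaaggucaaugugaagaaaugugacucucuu

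Mir6236 had 53758 reads in chromatin and 115933 in cytoplasm, a 4.78-fold higher RPKM in cytoplasm. Mir6240 had 51248 and 116536 reads, a 5.04-fold higher RPKM in cytoplasm. The same ratio was 4.94-fold for Lars2 and 5.57-fold for Gm42418. The values cover the whole annotated gene, and both mature forms are shorter than the fragments excised from the gel.

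With the ribosomal RNA loci left out, 14684168 reads remained in chromatin and 2116205 in cytoplasm. Because the library total enters every RPKM, this choice sets the level of all ratios. It divided each chromatin to cytoplasm ratio by 3.13. Giving both libraries the same RPKM sum multiplied each ratio by 3.18. A gene more than 3.13-fold higher in chromatin, or more than 3.18-fold higher in cytoplasm, therefore kept its direction on all 5 scales. Differences smaller than this depend on the scale for their direction. For this reason each ratio is also given relative to the median gene, which was 1.49-fold higher in chromatin on the deposited scale (median log2 ratio of RPKM + 1, 0.58).

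The label of the cells was compared with markers of several cell types. Of 11 fibroblast markers, 8 could be named, with a summed level of 92.7 RPKM in chromatin and 61.0 RPKM in cytoplasm, most of it from Fn1 and Col1a1. Dcn, a matrix proteoglycan of fibroblasts, was at 1.96 and 0.730 RPKM. Lum had 1 read in cytoplasm and none in chromatin, and Pdgfrb had no read in either library. The epithelial keratin gene Krt8 had 527 cytoplasmic reads and its partner Krt18 had 209, whereas Epcam, Cldn4 and Cldn7 had none in cytoplasm. All 6 epithelial markers had reads in chromatin. The sixth epithelial marker, the cadherin gene Cdh1, had 68 reads in cytoplasm and 33 in chromatin. The 6 summed to 6.54 RPKM in chromatin and 15.1 RPKM in cytoplasm. The named endothelial, immune, pluripotent, neural and muscle markers together had at most 10 cytoplasmic reads per cell type. The part of keratin-expressing cells in the results was not tested.

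By the ratio of RPKM + 1 on the deposited scale, chromatin exceeded cytoplasm 2-fold or more for 1460 of the 4512 genes (32.4%), and cytoplasm exceeded chromatin 2-fold or more for 529 (11.7%). With the median gene set to equal levels these counts were 546 and 893, and with the ribosomal RNA loci left out of the scale 388 and 1674, so the split of the genes is set by the scale. Another 130 genes that averaged at least 1 RPKM had no read in cytoplasm, and 31 had none in chromatin. The order of the genes does not depend on the scale apart from the effect of the pseudocount. Intervals in the text are exact 95% intervals from the recovered reads. They cover counting error only, since PCR copies of a molecule were not told apart.

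**Figure D1:**
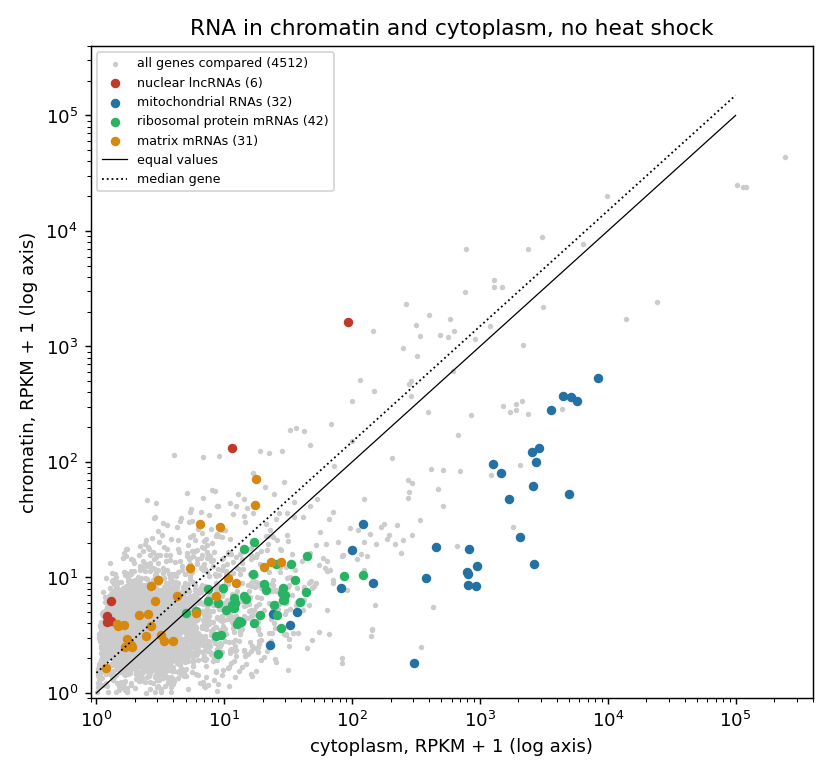
RPKM + 1 of 4512 genes in chromatin against cytoplasm without heat shock, both on log axes, 1 point per gene, with 4 gene lists in colour, a line of equal values and a dotted line at the median gene (1.49-fold higher in chromatin). The 32 mitochondrial RNAs lie below the line of equal values, and the 6 nuclear long noncoding RNAs lie above it.

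Nuclear long noncoding RNAs lay on the chromatin side. All 6 members that could be compared passed 2-fold toward chromatin, beside 32.4% of all genes, and their median log2 ratio lay 1.53 above the median gene, at the 95.8th percentile. The 6 also stayed higher in chromatin on all 5 scales, beside 125 of 426 named protein-coding genes. The 6 compared were part of 18 members that could be named, since 12 averaged under 1 RPKM. That filter is a mean over both fractions, so a member low in cytoplasm can pass it through its chromatin level alone. The count of 6 is therefore partly set by the filter. On recovered reads without an RPKM filter, 14 of 15 members passed 2-fold toward chromatin, beside 9304 of 13669 genes.

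Malat1, an abundant RNA of nuclear speckles, lies at chr19:5795690-5802672. It had 209301 reads in chromatin and 5299 in cytoplasm, or 1632 and 91.5 RPKM. The ratio was 17.8-fold in favour of chromatin (interval 17.4 to 18.3), and 5.69-fold without the ribosomal RNA loci in the scale. Neat1 lies close by, at chr19:5824708-5845480. It had 49887 and 1818 reads, or 130.8 and 10.6 RPKM, which was 12.4-fold higher in chromatin (11.8 to 13.0). The intervals of Malat1 and Neat1 did not overlap.

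Kcnq1ot1 and Airn are imprinted noncoding RNAs that silence neighbouring genes on the same chromosome. Kcnq1ot1 (chr7:143213111-143296547) had 8217 reads in chromatin and 204 in cytoplasm, 18.2-fold higher in chromatin (15.8 to 21.0). Airn (chr17:12741311-12859884) had 7956 and 210 reads, 17.1-fold higher in chromatin (14.9 to 19.7). These ratios could not be told apart from that of Malat1 within counting error, although the levels were far lower, at 5.30 and 3.65 RPKM in chromatin. Lncpint, an RNA linked to p53, had 7060 and 222 reads, a ratio of 14.4 (12.6 to 16.5). Dleu2, the host transcript of a microRNA cluster, had 4642 and 203 reads, a ratio of 10.3 (8.97 to 11.9). All except Neat1 overlap other annotated genes, and whether reads were assigned by strand is not known here, so reads of those neighbours cannot be told apart.

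The 12 members under the filter are given by their reads. Ftx and Jpx, RNAs of the X-inactivation centre, had 1689 and 167 reads in chromatin against 66 and 7 in cytoplasm. Nespas, an imprinted antisense RNA, had 596 and 24. Trp53cor1, the p53-induced lincRNA-p21, had 299 and 2 reads, a ratio of 67.5 with a wide interval (18.5 to 560.0). Xist, the RNA that coats the inactive X chromosome, had 27 and 2 reads, Fendrr had 30 and 1, Mir22hg had 25 and 3, Meg3 had 12 and 1 and Dlx6os1 had 8 and 0. Rian was the exception, with 13 and 8 reads, and a higher RPKM in cytoplasm on the deposited scale. Tsix had 1 read in chromatin, and Hottip had none in either library.

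Host genes of small nucleolar RNAs (snoRNAs), which carry these RNAs in their introns, were spread more widely. Of 6 compared, 3 passed 2-fold toward chromatin, beside 32.4% of all genes, and none toward cytoplasm, beside 11.7%. The median lay 0.60 above the median gene in log2. Snhg17 was 9.71-fold higher in chromatin (7.83 to 12.2), with 1870 and 87 reads. Snhg20 had 146 and 11 reads, a ratio of 5.99, and Snhg15 had 376 and 42, a ratio of 4.04 (2.93 to 5.70). Snhg12 was at 1.99-fold (1.55 to 2.59), Zfas1 at 1.20-fold (0.948 to 1.52) and Snhg5 at 0.958-fold (0.801 to 1.15), so the direction of these 3 depends on the scale. Snhg18 averaged under 1 RPKM, with 23 reads in chromatin and 1 in cytoplasm.

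The other named long noncoding RNAs far toward chromatin were Wt1os and Mirt1. Wt1os is transcribed next to and away from Wt1, the gene of a zinc finger transcription factor. Wt1os had 6091 reads in chromatin and 147 in cytoplasm, 18.7-fold (15.9 to 22.2). Wt1 had 23912 and 1004 reads, 10.8-fold (10.1 to 11.5). Both transcripts of the pair were thus on the chromatin side, and Wt1os the further. Mirt1 had 2179 and 47 reads, 20.9-fold (15.7 to 28.6). No named long noncoding RNA was at least 2-fold higher in cytoplasm, of 14 compared, beside 11.7% of all genes. With all tried identifiers included, 1 of 11 nuclear long noncoding RNAs was, by an identifier not accepted here. H19, an imprinted RNA listed here as cytoplasmic, had 1 read in cytoplasm and none in chromatin.

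**Figure D2:**
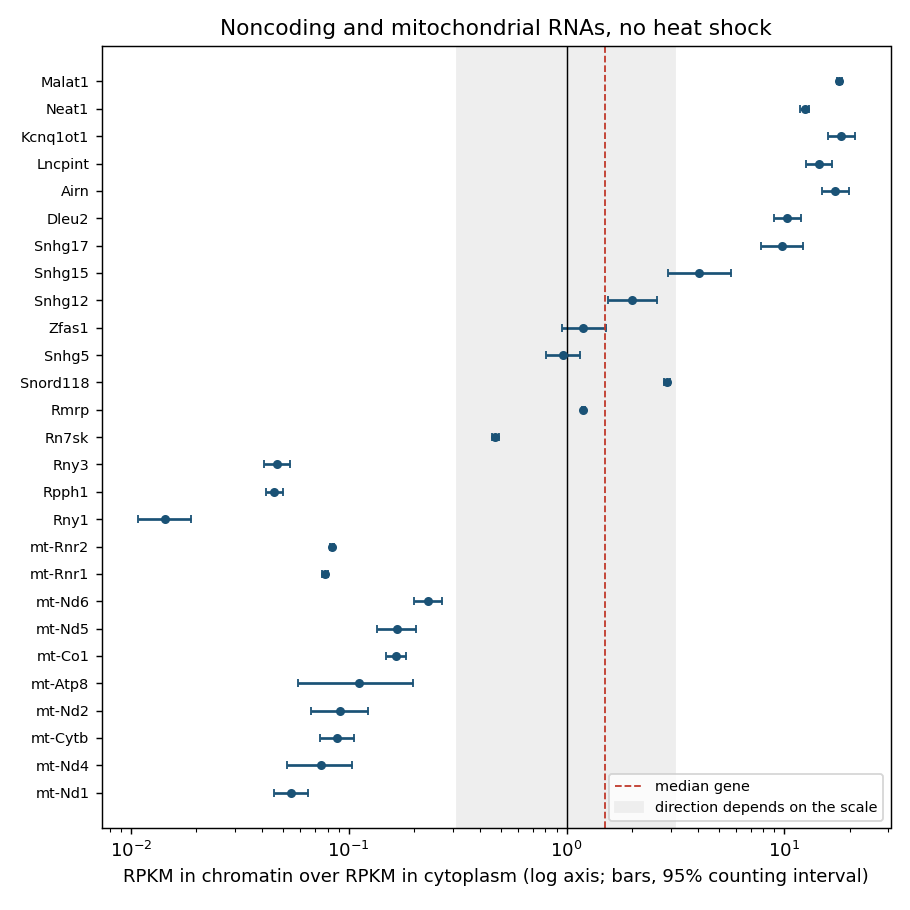
RPKM in chromatin over RPKM in cytoplasm for 27 noncoding and mitochondrial RNAs without heat shock, on a log axis, with 95% counting intervals as bars. The shaded band runs from 0.315 to 3.13, where the direction depends on the scale. The nuclear long noncoding RNAs lie right of the band, from 10.3 (Dleu2) to 18.2 (Kcnq1ot1), and the mitochondrial RNAs and Y RNAs lie left of it.

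Mitochondrial RNAs lay at the other end. All 32 compared, of 36 named, were at least 2-fold higher in cytoplasm, beside 11.7% of all genes. All 32 stayed higher in cytoplasm on all 5 scales, beside 69 of 426 named protein-coding genes, which include the mitochondrial mRNAs. The summed reads of the mitochondrial RNAs were 0.107% of the chromatin library and 1.46% of the cytoplasmic library. By class, the median log2 ratio lay 3.55 below the median gene for the 8 mRNAs, 4.21 below it for the 2 ribosomal RNAs and 5.90 below it for the 22 transfer RNAs. Mitochondrial RNA has no introns.

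The ribosomal RNAs were the deepest. The small subunit RNA mt-Rnr1 had 4944 reads in chromatin and 28638 in cytoplasm, 12.8-fold higher in cytoplasm (12.4 to 13.2). The large subunit RNA mt-Rnr2 had 10893 and 58894 reads, 12.0-fold (11.7 to 12.2). Both ratios were close in size, and their intervals did not overlap.

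The mRNAs varied more, from 4.33-fold to 18.4-fold with a median of 9.96-fold. mt-Nd1, a subunit of complex I, was at 7.91 RPKM in chromatin and 145.7 RPKM in cytoplasm, the latter from 1156 reads, and was 18.4-fold higher in cytoplasm (15.4 to 22.1). The complex I subunits mt-Nd4 and mt-Nd2 followed at 13.5-fold (9.64 to 19.2) and 10.9-fold (8.14 to 14.9). mt-Cytb, of complex III, was at 11.3-fold (9.49 to 13.6), and mt-Atp8, of the ATP synthase, at 9.01-fold (5.06 to 17.1), the latter from 15 and 61 reads.

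The other 3 mRNAs had lower ratios. mt-Co1, the catalytic subunit of cytochrome oxidase, had 465 and 1274 reads and was 6.07-fold higher in cytoplasm (5.45 to 6.76). mt-Nd5 was at 6.03-fold (4.91 to 7.43). mt-Nd6, the one mRNA encoded on the light strand, had 267 and 522 reads and was at 4.33-fold (3.73 to 5.04), the lowest of the 8. Its interval did not overlap that of mt-Co1. mt-Nd6 and mt-Nd5 overlap at their ends on opposite strands.

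The remaining named mRNAs had almost no reads. mt-Atp6 had 11 reads in cytoplasm and none in chromatin, at least 8.12-fold higher in cytoplasm against a floor of 3 reads in the chromatin library. mt-Nd4l had 0 and 2 reads, mt-Nd3 had 1 and 1, and mt-Co3 had none in either library. The sources used here do not say how reads that match several places were counted.

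All 22 mitochondrial transfer RNAs were on the cytoplasmic side, from 13.3-fold for the leucine transfer RNA mt-Tl1 to 376-fold for the tyrosine transfer RNA mt-Ty, with a median of 42.3-fold. The extreme value of mt-Ty rests on 1 read in chromatin against 170 in cytoplasm (interval 66.7 to 14957). mt-Tr, for arginine, had 15 and 1499 reads, 221-fold (133.8 to 396). mt-Tf, for phenylalanine, had 65 and 2793 reads, 95.2-fold (74.4 to 124). mt-Ts2 and mt-Tk, for serine and lysine, were at 126-fold and 107-fold from 8 and 9 reads in chromatin. The highest level in the cytoplasm was that of mt-Te, for glutamate, with 678 and 4783 reads, 15.6-fold (14.4 to 16.96). mt-Tf and mt-Tv flank mt-Rnr1, and mt-Tv, for valine, was at 17.2-fold (15.5 to 19.1), so the neighbours of 1 ribosomal RNA differed from each other beyond counting error.

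Small structured RNAs of the nuclear genome did not form 1 group. Of 5 compared, 4 were at least 2-fold higher in cytoplasm, beside 11.7% of all genes. That share was 35.6% for genes of up to 200 bp and 56.9% for genes over 200 bp to 1 kb. With all tried identifiers included, 5 of 8 members were at least 2-fold higher in cytoplasm and 2 in chromatin. The Y RNAs, small RNAs of Ro ribonucleoproteins, were far to the cytoplasmic side. Rny1 had 54 reads in chromatin and 1694 in cytoplasm, 69.5-fold (53.0 to 92.9), and Rny3 had 236 and 2277 reads, 21.4-fold (18.7 to 24.5). Rpph1, the RNA of ribonuclease P that trims transfer RNAs, had 549 and 5432 reads, 21.9-fold (20.1 to 24.0). Rmrp, the RNA of the related ribonuclease MRP, had 38335 and 14489 reads and was 1.20-fold higher in chromatin (1.17 to 1.22) on the deposited scale. The intervals of these related RNAs lay far apart, and the direction of Rmrp depends on the scale.

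Rn7sk, the 7SK RNA that holds the elongation factor P-TEFb inactive, had 6219 and 5965 reads, 2.12-fold higher in cytoplasm (2.05 to 2.20), a direction that turned when both libraries were given the same RPKM sum. Rn7s2, a 7SL RNA of the signal recognition particle, had 23 reads in cytoplasm and none in chromatin, at least 16.98-fold higher in cytoplasm against a floor of 3 reads. Of the 2 snoRNAs that could be named, Snord118, the U8 RNA of ribosomal RNA processing, had 22040 and 3442 reads and was 2.89-fold higher in chromatin (2.79 to 3.00), a direction that turned without the ribosomal RNA loci in the scale. Snord15a had 4665 and 17060 reads and was 8.10-fold higher in cytoplasm (7.84 to 8.37). The 2 snoRNAs thus lay on opposite sides on the deposited scale. Snord15a lies inside the ribosomal protein gene Rps3, and reads of the host and the snoRNA cannot be told apart.

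Ribosomal protein mRNAs lay on the cytoplasmic side. Of 42 compared, 30 were at least 2-fold higher in cytoplasm, beside 11.7% of all genes, and none was 2-fold higher in chromatin, beside 32.4%. All 42 lay below the median gene. The median log2 ratio was 2.07 below the median gene, at the 7.52nd percentile. On all 5 scales 21 of the 42 were higher in cytoplasm, beside 69 of 426 named protein-coding genes, which include this list. With the same RPKM sum, 5 passed 2-fold toward cytoplasm and 7 toward chromatin, beside 164 and 3293 of 4512 genes. The list holds 83 genes, of which 43 could be named.

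Rps21, of the small subunit, had 187 reads in chromatin and 1065 in cytoplasm, or 9.53 and 120.1 RPKM, and was 12.6-fold higher in cytoplasm (10.8 to 14.8). Rps29 had 71 and 328 reads, 10.2-fold (7.89 to 13.4), and Rpl8, of the large subunit, had 384 and 1587, 9.15-fold (8.18 to 10.3). The interval of Rps29 overlapped both others, while those of Rps21 and Rpl8 did not overlap. Rplp0, of the ribosomal stalk, was at 7.47-fold (6.67 to 8.37), and Rps3 and Rpl4, among the 4 members with the most reads, were at 3.86-fold (3.53 to 4.23) and 3.01-fold (2.81 to 3.23).

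At the other end of the list were Rps13, Rpl10a and Rpl5. Rps13 had 828 and 295 reads and was 1.27-fold higher in chromatin (1.11 to 1.45), Rpl10a was at 1.20-fold (1.06 to 1.36) and Rpl5 at 1.07-fold (0.962 to 1.20), and all 3 turned to the cytoplasm when the median gene was set to equal levels. Relative to the median gene, the list ran from -4.10 to -0.26 in log2. Many ribosomal protein genes have processed copies elsewhere in the genome and host snoRNAs in introns, so reads of such copies cannot be told apart here.

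Translation factors were less far to that side. Of 26 compared, 3 were at least 2-fold higher in cytoplasm, a share near the 11.7% of all genes, and 3 in chromatin, under the 32.4% of all genes. The median log2 ratio lay 0.89 below the median gene, beside 0.37 below it for the 426 named protein-coding genes. Eif5a, the hypusine-containing factor, was 6.71-fold higher in cytoplasm (6.16 to 7.33), Eef1b2, an exchange factor of elongation, 5.95-fold (5.24 to 6.77), and Eef2, the translocase, with 1999 and 3013 reads, 3.34-fold (3.15 to 3.53). Eif4a2, a helicase of initiation, was 3.36-fold higher in chromatin (3.04 to 3.72), and Eif4e, which binds the cap, 3.03-fold (2.73 to 3.37), the latter turning without the ribosomal RNA loci in the scale. The list thus spanned both sides.

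**Figure D3:**
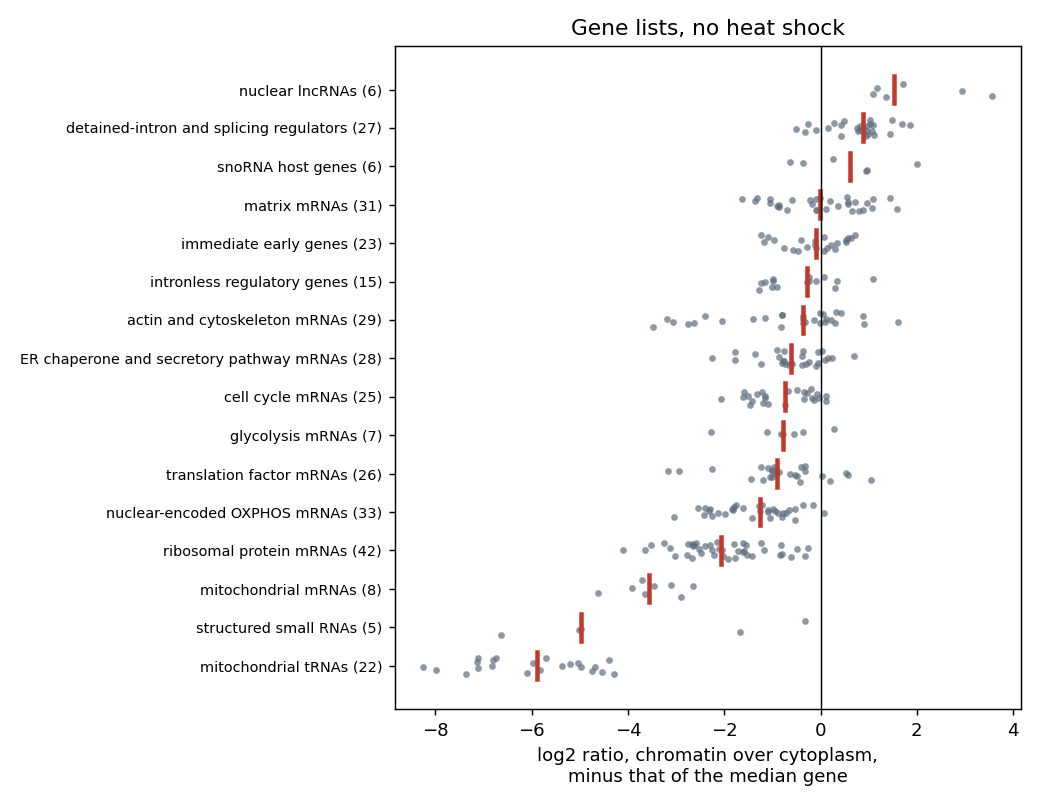
Log2 ratio of chromatin over cytoplasm minus that of the median gene, for the compared members of 16 gene lists without heat shock, 1 point per gene, the number of members in parentheses and the list's median as a red bar. Medians run from 1.53 for nuclear long noncoding RNAs to -5.90 for mitochondrial transfer RNAs, and that of matrix mRNAs is -0.01.

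Nuclear genes of oxidative phosphorylation were on the cytoplasmic side of the median gene in 32 of 33 cases, with a median 1.27 below it, and 14 were at least 2-fold higher in cytoplasm, beside 11.7% of all genes. Cox8a, of cytochrome oxidase, was 6.78-fold higher in cytoplasm (5.66 to 8.17), and the ATP synthase subunits Atp5b and Atp5a1 were at 4.34-fold (3.99 to 4.72) and 3.65-fold (3.39 to 3.93). Ndufs3, of complex I, was 2.34-fold higher in chromatin (1.79 to 3.11), a direction that turned without the ribosomal RNA loci in the scale. The mitochondrial mRNAs of the same complexes lay further to the cytoplasmic side, with a median 3.55 below the median gene.

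Cytoskeleton mRNAs were split. Tubb5, a beta tubulin, had 682 reads in chromatin and 2550 in cytoplasm and was 8.28-fold higher in cytoplasm (7.61 to 9.02), the actin-severing factor Cfl1 7.09-fold (6.26 to 8.04) and the cytoplasmic actin Actg1 6.04-fold (5.47 to 6.67). Actn1, which crosslinks actin, had 14305 and 813 reads and was 7.95-fold higher in chromatin (7.40 to 8.54), and the tropomyosin Tpm1 was at 3.19-fold (2.98 to 3.41). Each of these 5 kept its direction on all 5 scales by its ratio, but the interval of Tpm1 reached below the limit of 3.13. Of 29 compared, 7 were at least 2-fold higher in cytoplasm, beside 11.7% of all genes, and 3 in chromatin, beside 32.4%. Of 426 named protein-coding genes, 92 were at least 2-fold higher in cytoplasm and 135 in chromatin. Their median lay 0.37 below the median gene, close to the 0.36 of the cytoskeleton list, so that place is not particular to the list.

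Matrix mRNAs had 15 of 31 members above the median gene, 16 below it and a median of -0.01 relative to it. With a filter of 5 RPKM, which left 13 members, that median was 1.67, so their place depends on the filter. On the deposited scale 12 of 31 passed 2-fold toward chromatin, close to the 32.4% of all genes, and 1 toward cytoplasm, beside 11.7%. Without the ribosomal RNA loci in the scale these counts were 0 and 10, beside 388 and 1674 of all 4502 genes compared. Of 62 named members, 31 averaged under 1 RPKM. Fn1, the gene of fibronectin, had 87932 reads in chromatin and 9346 in cytoplasm, or 70.7 and 16.7 RPKM, and was 4.25-fold higher in chromatin (4.16 to 4.34). Adamts1, a secreted protease, was at 5.09-fold (4.61 to 5.64), Col5a2, a fibrillar collagen, at 4.49-fold (4.28 to 4.72) and Timp3, a protease inhibitor of the matrix, at 3.16-fold (3.05 to 3.28).

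The main fibrillar collagens lay lower. Col1a1 had 3891 and 3769 reads, or 12.6 and 27.0 RPKM, and was 2.15-fold higher in cytoplasm (2.05 to 2.24), the one list member past 2-fold on that side. Col3a1 was 1.30-fold higher in cytoplasm (1.23 to 1.37). Both directions turned when the libraries were given the same RPKM sum, as did those of the collagen-folding genes P4hb, at 1.77-fold (1.68 to 1.87), and Serpinh1, at 1.72-fold (1.60 to 1.85). The difference between Col1a1 and Fn1 does not depend on the scale, and their intervals lie far apart. Genes of the endoplasmic reticulum chaperones and the secretory pathway lay 0.60 below the median gene, with 23 of 28 below it. Of 426 named protein-coding genes, 259 lay below it. Sec63, of the translocon, was 6.98-fold higher in chromatin (6.00 to 8.16), and Sdf2l1, a chaperone partner, was 5.57-fold higher in cytoplasm (3.80 to 8.29).

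Regulators of splicing and genes known to keep introns in the nucleus lay on the chromatin side. Of 27 compared, 20 passed 2-fold toward chromatin, beside 32.4% of all genes, and none toward cytoplasm, beside 11.7%. The median lay 0.88 above the median gene, and 23 of 27 lay above it. On all 5 scales 18 stayed higher in chromatin, beside 125 of 426 named protein-coding genes. Ogt, the enzyme that adds N-acetylglucosamine to nuclear and cytoplasmic proteins, was 11.9-fold higher in chromatin (10.1 to 14.2), the splicing factors Luc7l2 and Rbm39 were at 8.62-fold (7.86 to 9.47) and 7.29-fold (6.73 to 7.90), and the speckle proteins Srrm2 and Son at 3.73-fold (3.49 to 3.99) and 3.54-fold (3.32 to 3.77). Hnrnpl, which binds CA repeats in RNA, was at 1.06-fold (0.975 to 1.16), which is below the median gene.

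Immediate early genes, which are short and quickly induced, were close to the median gene, with 11 of 23 above it and a median 0.09 below it. Of the 23, 5 passed 2-fold toward chromatin, a lower share than the 32.4% of all genes, and none toward cytoplasm, beside 11.7%. The matricellular gene Ccn1 had 2297 and 409 reads, 2.54-fold higher in chromatin (2.28 to 2.82), the phosphatase Dusp1 had 149 and 15, 4.49-fold (2.63 to 8.22), and Myc had 952 and 178, 2.42-fold (2.06 to 2.85). Jund was 1.73-fold higher in cytoplasm (1.41 to 2.12). Of these 4, Dusp1 kept its direction on all 5 scales by its ratio, but its interval reached below the limit of 3.13.

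Cell cycle and glycolysis mRNAs were mostly below the median gene, in 23 of 25 and in 6 of 7 cases. Of 426 named protein-coding genes, 259 lay below it. The ribonucleotide reductase subunit Rrm2 was 3.38-fold higher in cytoplasm (2.94 to 3.89) and the glycolytic mutase Pgam1 3.80-fold (3.41 to 4.24), while Top2a, a topoisomerase of dividing cells, was 1.21-fold higher in chromatin (1.14 to 1.29) on the deposited scale. Of 15 intronless regulatory genes, 11 lay below the median gene.

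The protein-coding genes furthest toward chromatin, among those named with at least 5 RPKM in either library and at least 20 reads, were Gpr39, Mib2, Samd4, Txnip, Vegfa, Cdr2l, Wt1, Rbms1, Efna5 and Osmr. They held places 12 to 38 of 1087 genes that met these limits, and the places between them were taken by genes without a name here. This order was not set against genes of the same span, and 89.2% of all compared genes over 100 kb passed 2-fold toward chromatin. Each of the 10 kept its direction on all 5 scales. That follows from their choice as the furthest genes, since a scale divided ratios by at most 3.13, and it adds no support. Osmr, a receptor chain for oncostatin M, had 9485 reads in chromatin and 162 in cytoplasm, or 8.41 and 0.318 RPKM, 26.4-fold (22.6 to 31.1). Efna5, a ligand of Eph receptors, had 49082 and 897 reads, 24.7-fold (23.1 to 26.4), and Gpr39, a zinc-sensing receptor, had 60514 and 1176, 23.2-fold (21.9 to 24.6).

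The others covered several roles. The ubiquitin ligase gene Mib2 was at 23.3-fold (18.8 to 29.3), Samd4, which encodes an RNA-binding repressor of translation, at 22.7-fold (21.4 to 24.1), and Rbms1, which encodes another RNA-binding protein, at 15.6-fold (14.9 to 16.5). Vegfa, the angiogenic growth factor gene, had 5028 and 153 reads, or 17.8 and 1.20 RPKM, and was at 14.8-fold (12.6 to 17.5). Txnip, which binds thioredoxin and restrains glucose uptake, spans 3927 bp and had 2074 and 75 reads, 12.5-fold (9.92 to 15.9). The interval of Txnip overlapped that of Neat1. Cdr2l was at 12.0-fold (10.6 to 13.7).

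The protein-coding genes furthest toward cytoplasm by the same rule were Hist1h3c, mt-Nd1, Rps21, Hist1h2bj, mt-Cytb, mt-Nd4, Rpl8, mt-Nd2, Rps29 and Tubb5. Of the 100 genes furthest to the cytoplasm, 47 spanned at most 200 bp, and of the 100 furthest to chromatin 18 did, beside 177 of the 1087 genes ranked (16.3%). The histone genes, whose mRNAs end in a stem-loop without a poly(A) tail, rested on few reads. Hist1h3c had 13 and 176 reads, 30.0-fold (17.1 to 57.4), and Hist1h2bj had 4 and 58, 32.1-fold (11.9 to 121.8). Near-identical histone copies can share reads, and 4 further named histone genes averaged under 1 RPKM.

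The ratio differed between span classes, so the lists were also set against genes of the same span class. The median log2 ratio of all compared genes was 0.12 for the 303 genes of up to 200 bp and -1.48 for the 167 genes over 200 bp to 1 kb. It was -0.38 for spans over 1 to 5 kb, 0.30 for 5 to 20 kb, 0.98 for 20 to 100 kb and 1.51 over 100 kb. The median was thus higher with each class from 200 bp upwards, and the shortest class did not follow that order. Chromatin exceeded cytoplasm 2-fold or more for 17.6% of genes over 1 to 5 kb and 18.3% over 5 to 20 kb. The share was 48.6% over 20 to 100 kb and 89.2% over 100 kb. Within the 1 to 5 kb class, 36 ribosomal protein genes had a median of -1.55 and 27 of them were at least 2-fold higher in cytoplasm, beside 28.8% of all genes of that class. Relative to their own span class, 37 of 42 ribosomal protein genes and 31 of 33 oxidative phosphorylation genes lay on the cytoplasmic side, and 24 of 27 splicing regulators, 6 of 6 nuclear long noncoding RNAs, 6 of 6 snoRNA hosts and 19 of 23 immediate early genes on the chromatin side. The snoRNA hosts had a median 1.56 above their class, further than the nuclear long noncoding RNAs at 1.00. Matrix mRNAs had 12 of 31 above and 19 below their class. The short immediate early genes thus lay near the median of all genes and above that of genes of their own span.

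**Figure D4:**
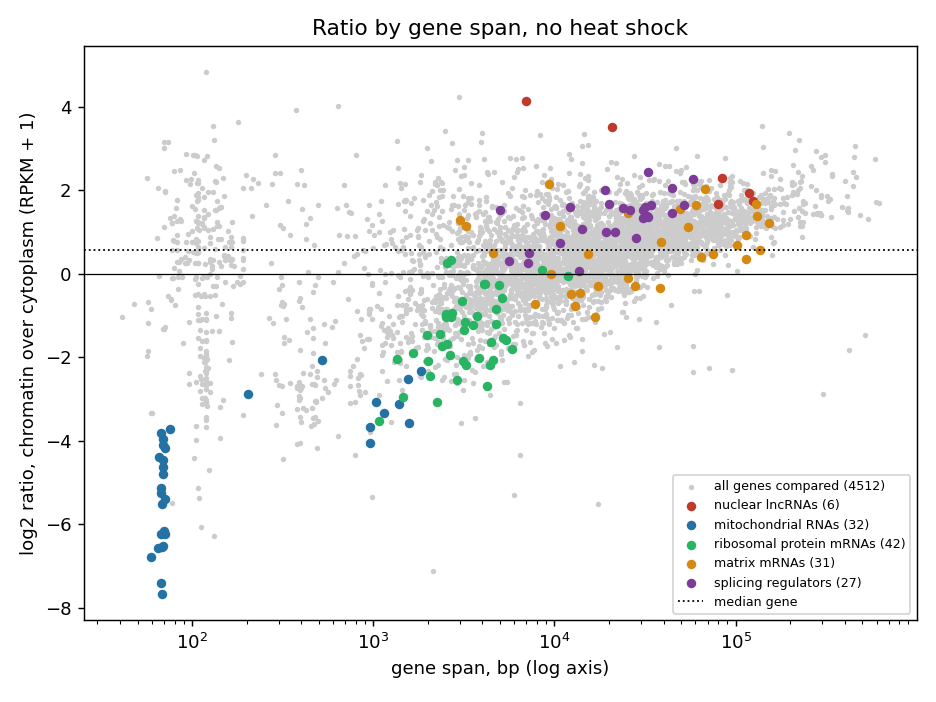
Log2 ratio of chromatin over cytoplasm (RPKM + 1) against the span of the gene on a log axis, 1 point per gene without heat shock, with 5 lists in colour and a dotted line at the median gene (0.58). Ribosomal protein genes lie below most genes of 1 to 5 kb, and Malat1 lies at 6983 bp and 4.14.

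The second pair of fraction libraries, taken after heat shock and recovery, shares no library with the first. Over 4473 genes compared in both pairs, the log2 ratios had a Pearson correlation of 0.77 and a Spearman correlation of 0.73 across genes, which are not independent replicates, and 79.3% of genes lay on the same side of their pair's median gene. All 6 nuclear long noncoding RNAs were again above the median gene, all 32 mitochondrial RNAs below it and 41 of 42 ribosomal protein mRNAs below it. Matrix mRNAs had 13 of 31 above it.

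The sizes differed between the pairs, and no difference was tested with 1 library each. Folds are on the deposited scale of each pair, whose median log2 ratio was 0.58 without and 0.92 after heat shock. The other scales were worked out for the first pair alone, so the part of the scale in changes of single folds is not known. The median of the mitochondrial RNAs relative to the median gene was -5.00 without and -2.54 after heat shock, and the transfer RNAs had a median ratio of 42.3-fold and 3.38-fold in favour of cytoplasm. Ribosomal protein mRNAs were at -2.07 and -1.43. Neat1 was 12.4-fold higher in chromatin without and 80.2-fold after heat shock, while Malat1 was at 17.8-fold and 15.6-fold. Fn1 was at 4.25-fold and 1.02-fold, and Txnip at 12.5-fold and 1.67-fold. The snoRNA hosts Snhg12, Zfas1 and Snhg5, which had ratios of 1.99, 1.20 and 0.958 without heat shock, had 6.39, 4.82 and 3.80 after it.

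**Figure D5:**
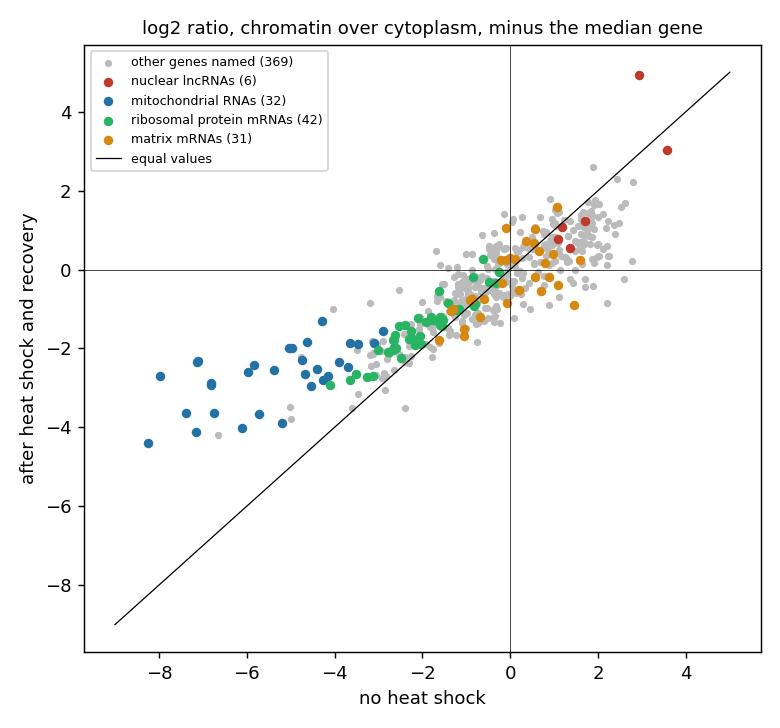
Log2 ratio of chromatin over cytoplasm minus that of the median gene, without heat shock (horizontal) and after heat shock and recovery (vertical), for 480 named genes, 1 point per gene, with a line of equal values. The 32 mitochondrial RNAs lie below 0 on both axes, with medians of -5.00 and -2.54, and the 6 nuclear long noncoding RNAs lie above 0 on both.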

How the data were processed

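The authors deposited 1 RPKM value per Ensembl gene for each fraction library. Reads were trimmed with cutadapt and aligned with STAR to GRCm38, per the submitters' processing notes. The sources used here do not give versions, the counting tool, strand or the treatment of reads with several matches. RPKM values are whole reads over gene span and library total, so totals, spans (introns included) and reads were recovered from the deposited values (largest relative error below the tolerance of 1e-12). RPKM per whole span understates spliced RNA of long genes, so levels were compared within a gene. The ratio within a gene still differed between span classes, and the part of intron reads in it was not tested. Recovery was tested on simulated data. Genes averaging at least 1 RPKM over the 4 libraries and read in both fractions were compared by the log2 ratio of RPKM + 1. This differs from the plain fold given for single genes, which is a ratio of deposited RPKM values, and understates the difference of low genes. Intervals are exact (Clopper-Pearson, scipy 1.17.1) on the recovered reads. Where a library has 0 reads, a floor of 3 reads stands in its place.

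No table pairs the identifiers with symbols. The pairs were recalled from general knowledge of Ensembl identifiers, some of them looked for because a gene ranked high, and each was accepted within 2% of the RefSeq span, or within 0.5% at 2 to 5 times the smallest span that fits the values. A listed gene taken at random would pass for a symbol by the 2% window in 0.608% of cases. That rate leaves out the rule at multiples, by which 19 genes were named. For genes under 1 kb the check is weak, since many have similar spans. 314 identifiers failed the check and 28 had no read in any library. The biotype of a gene is RefSeq's, and is known here for named genes alone.

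The rule for named genes took the 10 furthest to each side among protein-coding, long noncoding and other genes (at least 5 RPKM in either library and 20 reads over both), every member of the nuclear noncoding, mitochondrial and structured small RNA lists that has reads, and of each other list the 4 members with the most reads and the 3 furthest to each side. The text names a part of these. Col3a1, Snhg18, H19, Snord15a, the cell type markers and Cmss1, Mir6236 and Mir6240 fall outside that rule and were chosen after their values were seen. Single values of some loci are not reported here. Members and lists were chosen with earlier results of these data known. The methylation libraries were not analysed here.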

Additional observations from a re-analysis of the deposited data

How the results depend on the processing

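Depth limits the cytoplasm most, with 2116205 reads outside the ribosomal RNA loci. The counts of genes at least 2-fold higher in chromatin and in cytoplasm were 1460 and 529 of 4512. Of the same genes they were 546 and 893 with the median log2 ratio at 0, and 3293 and 164 with the same RPKM sum. The number of genes compared changed with the filter. It was 206 and 323 of 757 with a filter of 5 RPKM, and 9304 and 1043 of 13669 on recovered reads without an RPKM filter. With the 10 highest genes left out of the scale the counts were 868 and 978 of 4502, and without the ribosomal RNA loci 388 and 1674 of 4502. This last alternative and the span class as reference were chosen after seeing the data. No list median of at least 1 relative to the median gene changed sign. Apart from the scales themselves, the cause of these moves was not tested. Relative medians moved as follows. Nuclear long noncoding RNAs (1.53) had 1.93, 2.70, 4.36, 1.29, 1.77, 2.23 and 1.00 with the 10 highest genes left out, a pseudocount of 0.1, the filter of 5 RPKM, the filter on the 2 libraries, recovered reads, the ribosomal RNA loci left out and the span class as reference. The value of 4.36 rests on 2 genes. Mitochondrial RNAs (-5.00) had -4.42 with the same RPKM sum, -5.39 with the 10 highest left out, -5.34 with the pseudocount, -3.90 with 5 RPKM, -6.20 on recovered reads, -5.37 without overlapping genes, -5.56 without the ribosomal RNA loci and -4.54 against the span class. Ribosomal protein mRNAs (-2.07) had, in the same order, -1.69, -2.42, -2.59, -0.94, -3.48, -2.29, -2.61 and -1.17. Matrix mRNAs (-0.01) had 0.14 with the pseudocount, 1.67 with 5 RPKM, -0.43 on recovered reads, 0.17 without the ribosomal RNA loci and -0.31 against the span class. Classes by annotation could be formed among named genes alone, and the overlap alternative was run for named genes alone. No paired analysis was possible because each group is 1 library.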
